A study of Oryza sativa with 6 samples.

Results

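A group of AP2/ERF genes that direct spikelet development and shattering were followed in rice panicles: FZP (LOC_Os07g47330), SNB (LOC_Os07g13170), IDS1 (LOC_Os03g60430), SHAT1 (LOC_Os04g55560) and RSR1 (LOC_Os05g03040). They were chosen by locus identifier and known role, with no threshold on their values, but with earlier results of these data known. All 5 were present among the 42189 loci of the expression table. Wild-type Nipponbare, a japonica cultivar, was compared with Nipponbare plants overexpressing OsEXPA7, an alpha-expansin that loosens cell walls. Each genotype had 3 panicle libraries labelled as biological replicates, with the treatment field reading natural for both. The sources used here do not give the promoter of the transgene, the number of transgenic lines, any pooling of plants or the panicle stage, so each p-value reflects only the variation among these 6 libraries, which may be technical. Groups were taken from the titles, since the genotype field reads EXPA7 in wild-type libraries and EXPA7_OE in the others.

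AP2/ERF proteins are plant transcription factors that share a DNA-binding domain. FZP (FRIZZY PANICLE) belongs to the ERF branch, with a single such domain, and in rice it stops axillary meristems from forming in the spikelet so that florets arise in their place. SNB (SUPERNUMERARY BRACT) and IDS1 (INDETERMINATE SPIKELET 1) belong to the AP2 branch and act together in the passage from spikelet meristem to floral meristem. SHAT1 (SHATTERING ABORTION 1), also of the AP2 branch, is needed to form the abscission zone through which mature grains are shed. RSR1 (RICE STARCH REGULATOR 1) is an AP2-type repressor of starch synthesis genes in the seed. The AP2-branch genes are targets of the microRNA miR172, which was not measured here.

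Expression was given as TPM, a transcript abundance scaled for length and for the library total, so that levels can be set side by side between genes. Because TPM discards read depth, which is unknown here, no counting interval or detection limit is given. Across loci, log2(TPM + 1) correlated at 0.991 to 0.993 between libraries of the same genotype and at 0.948 to 0.953 between libraries of different genotypes. The overexpressed gene checked the labels: LOC_Os03g60720, paired with OsEXPA7 from general knowledge, had a mean of 935 ± 45.7 TPM for wild type and of 4782 ± 403 TPM for overexpression (SD, n = 3 each). All 7 floral organ genes examined as panicle markers, among them OsMADS2, OsMADS3, OsMADS16 and DL, were above 1 TPM in every library.

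The 4 AP2-branch genes were all expressed and all were lower in the overexpression panicles, while FZP was at or next to 0 in both genotypes. Mean TPM of IDS1 fell by 42.0% and that of RSR1 fell by 40.7%, while SHAT1 fell by 31.7% and SNB fell by 27.7%. Their summed level was 148 ± 4.35 TPM in wild type and 99.0 ± 2.37 TPM with overexpression (SD, n = 3 each). All 4 passed the threshold of an adjusted p under 0.05 (limma, two-sided, Benjamini-Hochberg adjustment over 23395 tested loci, those that reached 1 TPM in 3 or more libraries). In that comparison 17.5% of all tested loci were called lower and 42.8% were called in either direction, so a call in itself was common. The overexpression libraries all lay below the wild-type libraries for 4 of the 4 tested genes, and for 22.5% of all tested loci. Because each library mixes the cells of panicle tissue, fewer cells that express a gene and less transcript per cell cannot be told apart.

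**Figure D1:**
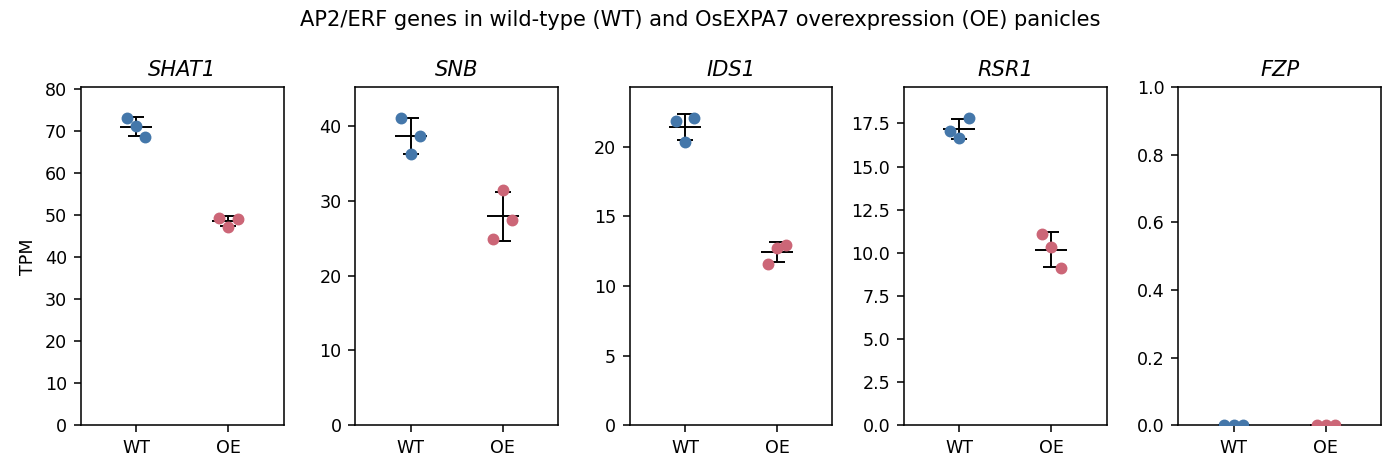
TPM of each AP2/ERF gene in the 3 wild-type (WT) and 3 overexpression (OE) libraries; each point is a library, the bars give the mean and SD, and each panel has its own axis from 0. The groups are apart for SHAT1, SNB, IDS1 and RSR1, with every overexpression library below every wild-type library, and FZP lies at or next to 0 throughout.

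SHAT1, the abscission-zone gene, was the most abundant of the 5. Its wild-type libraries gave 73.0, 71.2 and 68.6 TPM, and its overexpression libraries 49.3, 47.1 and 49.0 TPM. The groups did not overlap, and the lowest wild-type library was 1.39 times the highest overexpression library. The change of log2(TPM + 1) was -0.54 ± 0.05 (SE), with a limma adjusted p of 6.01e-05. SHAT1 was also the steadiest within overexpression, with a coefficient of variation of 2.47%.

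SNB, which times the switch from spikelet to floral meristem, came next in level. Its TPM was 41.1, 36.3 and 38.6 in wild type and 25.0, 31.4 and 27.4 with overexpression. The groups did not overlap, but the gap was the narrowest of the 4: the lowest wild-type library was 1.15 times the highest overexpression library. SNB changed by -0.46 ± 0.09 (SE) on the log2(TPM + 1) scale, with a limma adjusted p of 0.00336. Its overexpression libraries were the most scattered, with a coefficient of variation of 11.7% against 6.19% in wild type.

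IDS1, the partner of SNB in spikelet meristem determinacy, fell from 21.9, 20.4 and 22.1 TPM in wild type to 11.6, 12.7 and 12.9 TPM with overexpression. No library of either group came near the other: the lowest wild-type value was 1.57 times the highest overexpression value. The change was -0.74 ± 0.08 (SE) on the log2(TPM + 1) scale, with a limma adjusted p of 7.90e-05. Only 3.53% of the tested loci had a log2 change below that of IDS1.

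RSR1, the starch regulator, was the lowest of the expressed AP2 genes. Wild-type libraries gave 17.0, 16.7 and 17.8 TPM, and overexpression libraries 11.1, 10.3 and 9.11 TPM. These groups did not overlap either, with a lowest wild-type library 1.50 times the highest overexpression library. RSR1 changed by -0.70 ± 0.09 (SE) on the log2(TPM + 1) scale, with a limma adjusted p of 0.000265. The share of tested loci with a log2 change below it was 4.06%, against 6.94% for SHAT1 and 9.16% for SNB.

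FZP was listed at 0 in all 3 wild-type libraries and in 2 of the overexpression libraries. The remaining overexpression library, replicate 3, gave 0.00223 TPM. FZP therefore lay below the filter on low values and was not tested. Without that filter FZP entered the fit through that library alone. Its log2 change there, 0.00107 (limma adjusted p = 0.986), could not show a difference and is not evidence of equal expression. Since the depth is unknown, these zeros set no upper limit on FZP.

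**Figure D2:**
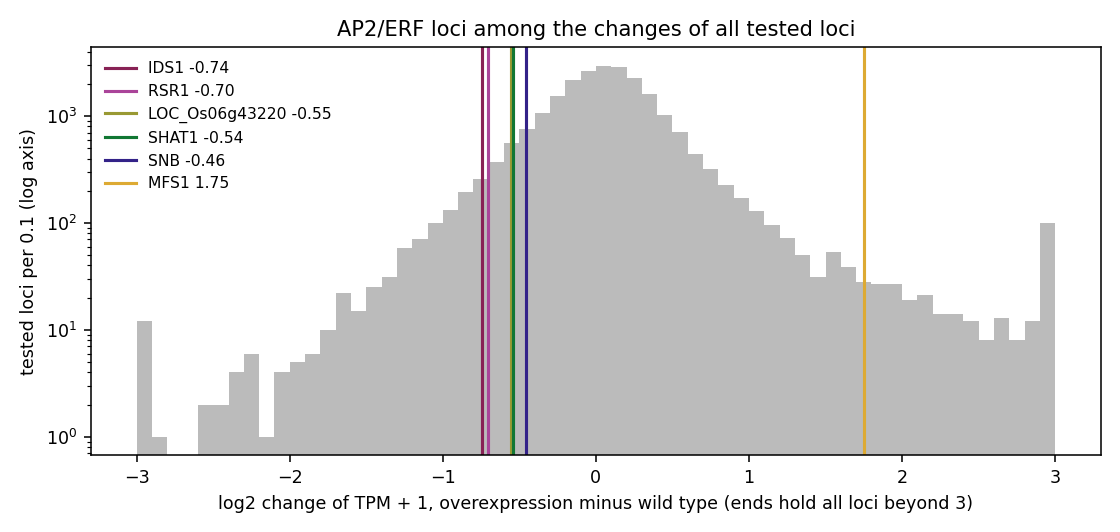
Number of tested loci (log axis) by log2 change of TPM + 1, overexpression minus wild type, in bins of 0.1, with all loci beyond 3 in the end bins. Coloured lines mark IDS1 (-0.74), RSR1 (-0.70), LOC_Os06g43220 (-0.55), SHAT1 (-0.54) and SNB (-0.46) on the lower flank and MFS1 (1.75) in the upper tail.

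The order of levels was SHAT1, SNB, IDS1, RSR1 and FZP in each of the 6 libraries, and neighbours in that order did not overlap within either genotype. In wild type SHAT1 exceeded 88.5% of the tested loci in mean TPM, SNB 77.2%, IDS1 61.1% and RSR1 54.7%. In the overexpression libraries the same shares were 80.7% for SHAT1, 66.4% for SNB, 43.8% for IDS1 and 38.6% for RSR1. IDS1 and RSR1 thus moved from above the median tested locus to below it.

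Whether the 4 genes fell in the same proportion was examined through their ratios within each library, over 6 pairs. The ratio of SNB to IDS1, the pair that acts in meristem determinacy, was 1.88, 1.78 and 1.75 in wild type and 2.15, 2.47 and 2.12 with overexpression. That ratio was higher in every overexpression library, as were SHAT1 to IDS1 (3.11 to 3.50 in wild type, 3.70 to 4.25 with overexpression) and SHAT1 to RSR1 (3.85 to 4.29 in wild type, 4.44 to 5.38 with overexpression). Each of these 3 ratios gave a two-sided exact permutation p of 0.1, the smallest that 3 against 3 libraries can give, and 0.2 after adjustment over the 6 pairs. For SNB to RSR1 (exact permutation p = 0.2), SHAT1 to SNB (0.9) and IDS1 to RSR1 (0.8) the groups overlapped. The mean log2 ratio of IDS1 to RSR1 differed by -0.03 between genotypes and that of SHAT1 to SNB by -0.08. With 3 libraries a group this test cannot reach 0.05, so it does not decide whether the falls were equal.

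**Figure D3:**
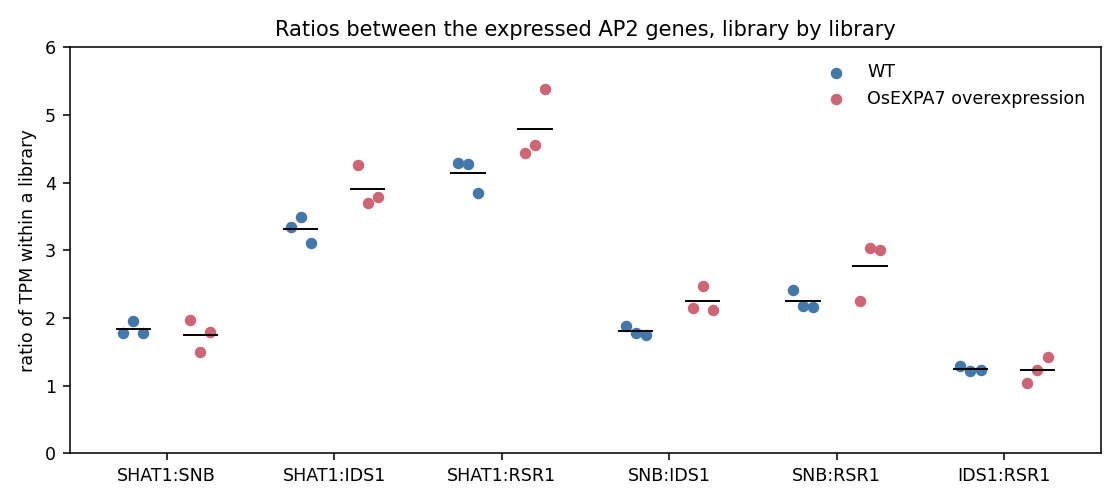
Ratio of TPM between each pair of expressed AP2 genes within each library, with 3 wild-type and 3 overexpression points a pair and a line at each mean. SHAT1:IDS1, SHAT1:RSR1 and SNB:IDS1 are higher in every overexpression library, and the other 3 pairs overlap.

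A further AP2-like locus and an ERF gene stood beside these genes in opposite directions. LOC_Os06g43220, from general knowledge another miR172-targeted AP2 gene of rice, gave 26.8, 25.1 and 25.3 TPM in the wild-type libraries and 17.8, 16.6 and 17.3 TPM with overexpression. It fell by 0.55 ± 0.07 (SE) on the log2(TPM + 1) scale, a change between those of SHAT1 and RSR1, with a limma adjusted p of 0.000213. LOC_Os05g41760, paired from general knowledge with MFS1 (MULTI-FLORET SPIKELET 1), encodes an ERF protein that acts in spikelet determinacy in rice, and mutants in it are known for lower SNB and IDS1 expression. The TPM of MFS1 was 13.8, 14.9 and 13.6 in wild type and 53.6, 46.4 and 49.5 with overexpression. Its mean was 3.53 times that of wild type, with no overlap, and 31.3% of tested loci likewise had every overexpression library above every wild-type library. Its log2 change of 1.75 ± 0.07 (SE; limma adjusted p = 2.81e-07) exceeded that of 98.8% of the tested loci.

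The other spikelet identity genes, mostly MADS-box factors that specify the spikelet and its florets, either rose by less than MFS1 or did not pass the test. Of the 15 listed beside MFS1, 14 were tested: 6 rose, 0 fell and 8 did not pass, with a median log2 change of 0.13 against 0.06 over all tested loci, of which 25.3% were called higher. After MFS1 the largest rises were those of OsMADS22, which acts in spikelet meristem identity (5.98 ± 0.647 to 7.95 ± 0.104 TPM, SD, n = 3 each), and of OsMADS14, an AP1/FUL-class inflorescence gene (36.6 ± 1.05 to 47.0 ± 1.75 TPM, SD, n = 3 each). Their log2 changes were 0.36 ± 0.10 and 0.35 ± 0.06 (SE). With MFS1 the list gave 7 rises, and 4 with median-of-ratios scaling and without wild-type replicate 1 or 2. Without the variance trend the list gave 6 calls, of which 5 were higher, so a lower call appeared there. The rise of OsMADS22 did not pass without wild-type replicate 2 (limma adjusted p = 0.0619) or without overexpression replicate 3 (0.0502), within a range from 0.0119 over all alternatives. OsMADS1, the floret identity gene, was at 284 ± 5.95 TPM in wild type and 284 ± 5.62 TPM with overexpression (SD, n = 3 each), with a log2 change of 0.00 ± 0.04 (SE) that did not pass the test.

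Genes of panicle branching and meristem fate moved in both directions. Of 14 loci 7 were below 1 TPM in every library and were not tested, among them LAX1, LAX2's partner in axillary meristem formation, and the meristem identity regulators APO1, RFL and TAW1. Of the 7 tested, 2 rose, 2 fell and 3 did not pass, with a median log2 change of 0.00. Among all tested loci 25.3% were called higher and 17.5% lower, with a median of 0.06, so these counts lie near the background. OsSPL17, a miR156-targeted SPL factor, rose from 2.78, 3.25 and 2.56 TPM to 6.99, 5.58 and 7.32 TPM, with log2 change 0.98 ± 0.13 (SE). DEP1, a G-protein gamma subunit that sets panicle density, rose from 24.9 ± 0.590 to 37.9 ± 1.40 TPM (SD, n = 3 each). OsCKX2, a cytokinin oxidase known for its effect on grain number, fell from 1.69 ± 0.256 to 0.750 ± 0.0879 TPM (SD, n = 3 each). OsCKX2 passed the filter through the wild-type libraries alone, and without it 1 of 6 tested loci fell. LAX2 fell from 4.41 ± 0.289 to 2.72 ± 0.481 TPM.

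**Figure D4:**
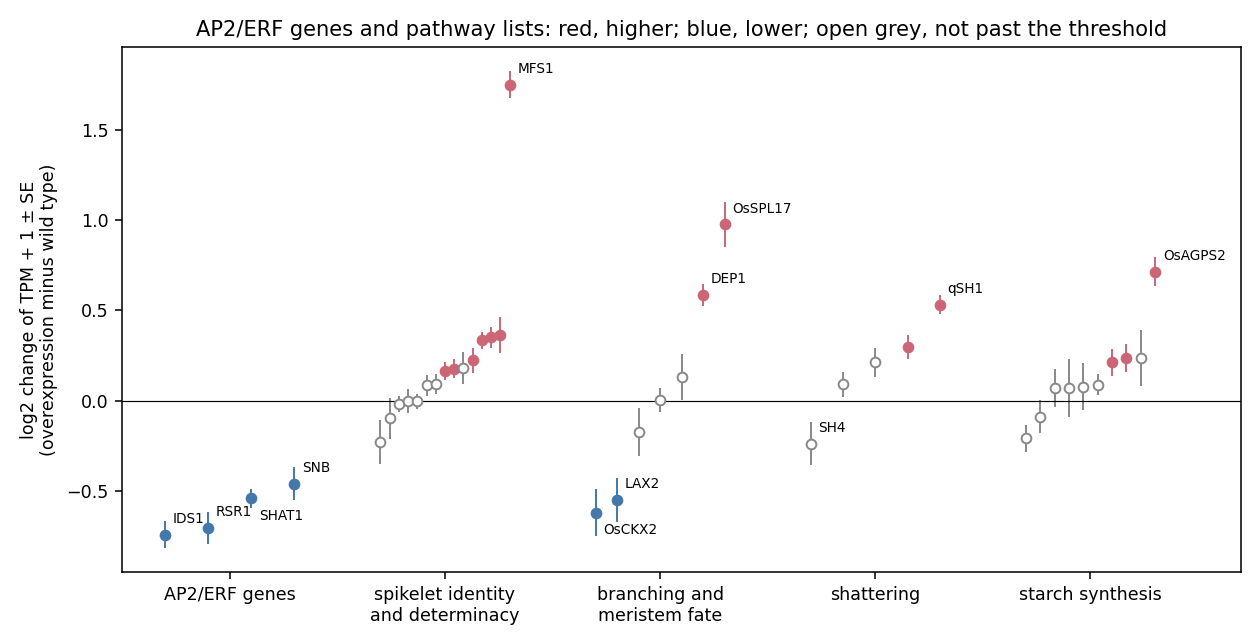
Log2 change of TPM + 1 with its SE for each tested locus of the AP2/ERF genes and of 4 pathway lists; red points were called higher, blue lower, and open grey points did not pass the threshold. The 4 tested AP2/ERF genes lie between -0.74 and -0.46, while no tested spikelet, shattering or starch locus was called lower in the fit shown.

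Of the other shattering genes none was called lower beside SHAT1. Of 5 loci, all tested, 2 rose and 3 did not pass, with a median log2 change of 0.21, beside 25.3% called higher and a median of 0.06 over all tested loci. qSH1, a BEL1-type homeobox gene of the abscission zone, rose from 37.6, 36.6 and 36.0 TPM to 53.7, 53.2 and 53.6 TPM, with log2 change 0.53 ± 0.05 (SE; limma adjusted p = 6.49e-05). OsCPL1, a phosphatase that represses abscission-layer development, rose from 24.8 ± 1.59 to 30.7 ± 0.266 TPM (SD, n = 3 each). SH4, a trihelix factor that acts with SHAT1, gave 13.6, 12.0 and 10.8 TPM in the wild-type libraries and 11.1, 8.52 and 10.7 TPM with overexpression, and these groups overlapped (limma adjusted p = 0.139). SH5, a homeobox relative of qSH1, was at 34.3 ± 1.39 and 36.6 ± 2.42 TPM, and the YABBY gene OsSh1 at 58.8 ± 7.07 and 68.0 ± 1.94 TPM (wild type and overexpression, SD, n = 3 each), and neither passed. OsSh1 did pass without wild-type replicate 3 (limma adjusted p = 0.00354) and with the robust fit (0.0459), within a range up to 0.200. SH5 had a log2 change of 0.09 that turned to -0.02 after quantile normalization.

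Starch synthesis genes, the known targets of RSR1 in the seed, were compared next. Of 12 loci listed, 11 had a value and 10 were tested: 3 rose, 0 fell and 7 did not pass, with a median log2 change of 0.08. These are close to the 25.3% called higher and the median of 0.06 over all tested loci. OsAGPS2, a small subunit of ADP-glucose pyrophosphorylase, rose from 46.8, 39.1 and 38.3 TPM to 66.2, 71.4 and 67.5 TPM, with log2 change 0.71 ± 0.08 (SE; limma adjusted p = 0.000145). The plastidic phosphorylase gene PHO1 and the debranching enzyme gene ISA1 rose by smaller amounts, with log2 changes of 0.24 ± 0.08 and 0.21 ± 0.07 (SE). PHO1 passed under 6 of the 14 alternatives and ISA1 under 4, with limma adjusted p up to 0.132 and 0.215. The list gave 1 rise in place of 3 without wild-type replicate 1 or 2, without overexpression replicate 2 or 3, without the filter, with the replicate block and after quantile normalization. The branching enzyme gene BEIIb, named after its values were seen, measured 24.3 ± 1.31 TPM in wild type and 20.9 ± 1.35 TPM with overexpression (SD, n = 3 each), without overlap. Its log2 change of -0.21 ± 0.08 (SE) missed the threshold (limma adjusted p = 0.0513), but it passed as lower under 5 of the 14 alternatives: with a filter at 5 TPM, median-of-ratios scaling, quantile normalization or the robust fit, and without overexpression replicate 2. Its adjusted p over the alternatives ran from 0.00333 to 0.140. GBSSI, the endosperm enzyme of amylose synthesis, was below 1 TPM in every library.

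Markers of other tissues moved in the same libraries, and their part in the lower AP2 values was not tested. Their counts stand beside 17.5% called lower and 25.3% called higher over all tested loci. Of 6 green-tissue loci 4 fell and 1 rose. Their summed level was 917 to 993 TPM for wild type and 583 to 638 TPM for overexpression. Most of that sum, and of its fall, was CAB2R (737 ± 33.9 to 425 ± 24.3 TPM, SD, n = 3 each). Of 10 anther and tapetum loci 2 rose, 3 fell and 5 did not pass. Their summed level was 2452 to 2534 TPM for wild type and 1277 to 1320 TPM for overexpression. OsC6, a tapetal lipid transfer protein gene, fell from 1520 ± 49.1 to 261 ± 4.43 TPM (SD, n = 3 each). On means, that fall exceeded the fall of the sum, so the other anther loci together were not lower. RTS, an anther gene, was listed at 0 in every overexpression library. RTS passed the filter through the wild-type libraries alone, and without it 2 of 9 anther loci fell. Of 6 meiosis loci 2 rose and 0 fell, with summed levels of 74.4 to 80.7 TPM and 96.5 to 103 TPM. Of the 7 floral organ loci 3 rose and 1 fell, with summed levels of 279 to 291 TPM and 335 to 354 TPM. OsMADS16 alone rose from 76.0 ± 2.84 to 145 ± 4.88 TPM (SD, n = 3 each). On means, that was more than the rise of the sum, so the other floral loci together did not rise. Of 6 endosperm loci 3 were tested and 0 passed by limma, and the summed level, 28.2 to 30.3 TPM for wild type and 24.6 to 28.5 TPM for overexpression, came mostly from BEIIb.

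The loci whose profile over the 6 libraries lay closest to each AP2 gene were found by the root-mean-square difference of log2(TPM + 1), each profile centred on its own mean. For SHAT1 these were LOC_Os03g22720, at a difference of 0.021, and LOC_Os07g35790, at 0.023. LOC_Os07g35790 was near the floor, at 1.92 ± 0.0607 TPM in wild type and 0.993 ± 0.0636 TPM with overexpression (SD, n = 3 each). At such levels the log2(TPM + 1) scale understates the change, so its likeness to SHAT1 holds on that scale and not for TPM. For IDS1 they were LOC_Os03g38210 (difference 0.011) and LOC_Os01g71094 (0.015). For RSR1 they were LOC_Os05g40020 (0.034) and LOC_Os01g62480 (0.039), and for SNB LOC_Os02g07670 (0.041) and LOC_Os04g01740 (0.043). Both loci closest to SNB were also low. LOC_Os02g07670 went from 4.87 ± 0.478 to 3.31 ± 0.598 TPM and LOC_Os04g01740 from 2.97 ± 0.172 to 1.92 ± 0.310 TPM (wild type to overexpression, SD, n = 3 each). Their likeness to SNB is likewise given for the log2(TPM + 1) scale only. Between the AP2 genes themselves the same measure ran from 0.121 (IDS1 and RSR1) to 0.188 (SNB and RSR1), a comparison with 3 genes each, where the closest profiles were sought among all tested loci.

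The falls of the 4 AP2 genes held under every alternative processing that was tried. Over the 14 alternatives the log2 change ranged from -0.84 to -0.70 for IDS1, from -0.81 to -0.63 for RSR1, from -0.63 to -0.52 for SHAT1 and from -0.56 to -0.38 for SNB. The highest limma adjusted p among the alternatives was 0.000620 for IDS1, 0.00151 for RSR1, 0.000576 for SHAT1 and 0.0151 for SNB.

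**Figure D5:**
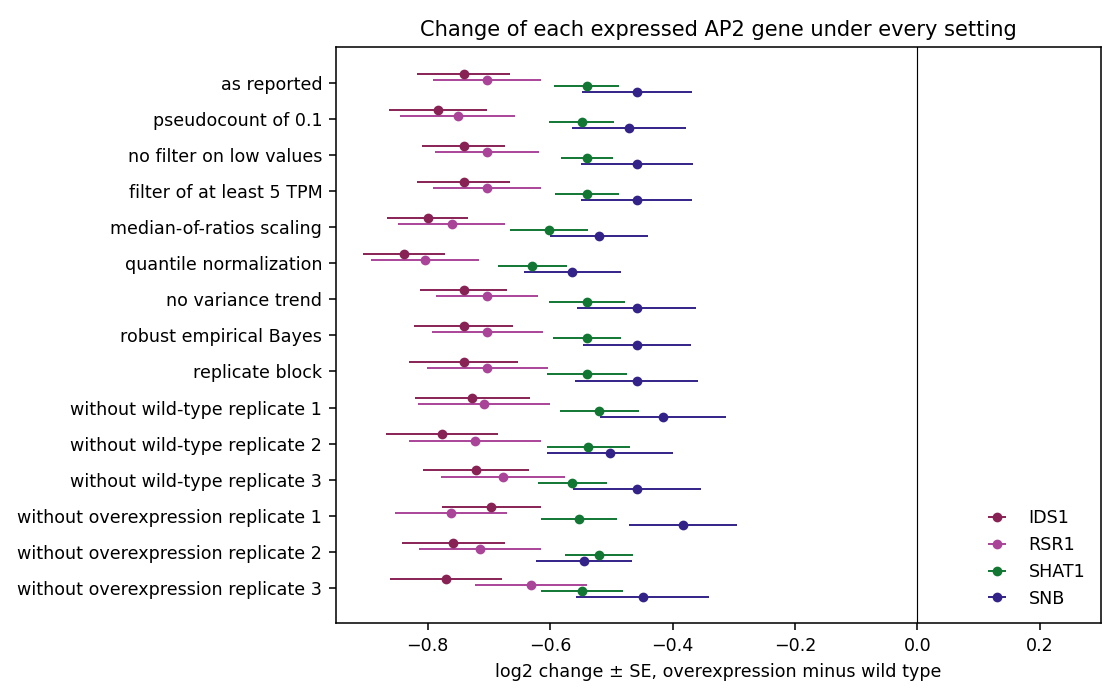
Log2 change with its SE of IDS1, RSR1, SHAT1 and SNB, overexpression minus wild type, as reported and under each of 14 alternative settings. All values lie below 0, from -0.84 to -0.38, and IDS1 and RSR1 lie below SHAT1 and SNB under each of them.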

How the data were processed

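Messenger RNA libraries from panicles were made with a kit for Illumina sequencing, per the labels' protocols. The deposited values are TPM, scaled by the authors to the same total in every library. The sources used here name no aligner, quantifier or annotation. GRCm38 and mm10, mouse builds, stand in the submitters' processing notes, whereas the loci have rice identifiers; this was not resolved. How reads shared between related loci were treated is also not given, so values of close AP2 relatives carry that uncertainty.

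Values were analysed as log2(TPM + 1), a scale that understates changes of low loci. The 23395 loci that reached 1 TPM in 3 or more of the 6 libraries were fitted with limma 3.58.1 in R 4.3.3 (genotype as the only term, empirical Bayes with a variance trend). Ratios within libraries were compared with exact permutation tests (scipy 1.17.1), chosen after the values were seen. The fit was also run on simulated independent normal values with few changed loci. That checks the code and not whether these libraries meet its assumptions. Replicates were not pooled.

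The genes and lists were chosen with earlier results of these data known. The table holds no gene names: identifiers were paired with names from general knowledge. Of 85 distinct loci, 51 names stand in the reference gene table (assembly ASM3414082v1) on the chromosome that the identifier names, FZP, SHAT1 and RSR1 among them. SNB, DEP1, OsSPL17 and the genes of the shattering list were not found there by name. Searched by name or synonym, IDS1 and MFS1 matched only entries on chromosomes other than those their identifiers name. For IDS1 the entry is a metallothionein gene that has the name as a synonym, so the AP2 gene was not found there. Whether the MFS1 entry is the same gene was not checked. Named genes were the 5 AP2/ERF genes, 6 fixed pathway loci and the 3 largest called changes of each pathway list. The 2 closest profiles per tested gene were named too. LAX1, LAX2, APO1, RFL, TAW1, OsMADS1, BEIIb, GBSSI and the marker genes were named after their values were seen. The fit was repeated with median-of-ratios or quantile scaling, a 0.1 TPM pseudocount, a 5 TPM filter or none, no variance trend, robust estimation, a replicate block, and without each library. No sequences were at hand to print.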

Additional observations from a re-analysis of the deposited data

How the results depend on the processing

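All 4 tested AP2 genes passed the threshold, lower in overexpression, under each of the 14 alternatives. Loci past the threshold numbered 7971 to 10181 against 10002, and 59.1% of calls were higher as deposited against 45.7% after quantile normalization, where SH5 turned to a log2 change of -0.0202. The spikelet list gave 4 calls with median-of-ratios scaling and 4 to 6 when a library was left out, against 7. The branching list gave 2 calls with a filter at 5 TPM, against 4, since fewer loci were tested. The starch list gave 1 call without the filter and 1 with the replicate block, and 1 to 3 when a library was left out, against 3; the cause was not tested. For libraries that share a number, deviations from the genotype means correlated at 0.097, -0.099 and -0.069, so the numbers gave no sign of pairing; the block gave 9264 calls, and not every library correlated best with its own number. ISA1 passed under 4 of 14 alternatives and PHO1 under 6. Depth is unknown, which limits what can be said of FZP.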

Other observations

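IDS1 lies near the native locus of the overexpressed gene on chromosome 3, by the order of the locus identifiers. The 19 tested loci numbered between IDS1 and OsEXPA7 were examined after the values of IDS1 were seen. Of these 12 rose past the threshold, 1 fell and 6 did neither, with a median log2 change of 0.31, against 25.3% called higher, 17.5% called lower and a median of 0.06 over all tested loci. The log2 change of IDS1 was -0.74, and 1 of the 19 loci had a lower one. The direction of IDS1 was opposite to that of most loci between it and OsEXPA7, and any effect of position was not tested.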
